A study of Homo sapiens with 6 samples.

Results

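TXNIP, the thioredoxin-interacting protein, was followed through its probe ILMN_1697448, which the platform annotation pairs with the transcript NM_006472. The probe was chosen by its identifier and not by its values. It is 1 of 47231 probes on the Illumina HumanHT-12 bead array, and no other probe of the array carries the name TXNIP. The cells were SK-Hep1, an adherent human line labelled as hepatocellular carcinoma. Total RNA of 3 samples labelled siLuc, the control of the knockdown, was compared with that of 3 samples labelled siTARDBP, in which TARDBP was knocked down. TARDBP encodes TDP-43, an RNA-binding protein that acts in splicing and RNA stability. All 6 samples came from this 1 line, so that the comparison rests on a single genetic background. The siRNA sequences, their dose, the time of harvest and the glucose in the medium were not given in the sources used here. Nothing in the labels says whether the 3 samples of a group were separate cultures, and p-values therefore reflect the scatter of these 6 arrays alone, part of which may be technical.

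TXNIP is an alpha-arrestin that binds reduced thioredoxin and holds it inactive. Its gene is among the most glucose-responsive ones known: glucose phosphates bring the factor MondoA, or ChREBP in liver, together with Mlx to tandem E boxes of its promoter. The protein lowers glucose uptake by drawing the transporter GLUT1 from the cell surface, and it can bind the inflammasome sensor NLRP3. In liver it is therefore studied where sugar supply, redox state and inflammation meet.

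The stretch upstream of the TXNIP start is shown because it carries the sites through which the gene is known to read glucose, and that of ARRDC4 because ARRDC4 is the alpha-arrestin known to share this control. Both are the 250 bases before the RefSeq start in build GRCh38.p14, read 5′ to 3′ in the direction of the gene. TXNIP lies at chr1:145996580-145996829 on the minus strand and ARRDC4 at chr15:97960453-97960702 on the plus strand. Capitals mark matches, on either strand, to the tandem E box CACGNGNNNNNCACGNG, the CCAAT box CCAAT and the forkhead motif GTAAACA.
TXNIP: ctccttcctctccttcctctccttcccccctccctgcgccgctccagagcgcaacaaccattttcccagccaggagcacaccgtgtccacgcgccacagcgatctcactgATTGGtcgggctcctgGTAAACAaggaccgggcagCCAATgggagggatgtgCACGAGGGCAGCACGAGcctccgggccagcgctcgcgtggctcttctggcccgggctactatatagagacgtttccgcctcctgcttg
ARRDC4: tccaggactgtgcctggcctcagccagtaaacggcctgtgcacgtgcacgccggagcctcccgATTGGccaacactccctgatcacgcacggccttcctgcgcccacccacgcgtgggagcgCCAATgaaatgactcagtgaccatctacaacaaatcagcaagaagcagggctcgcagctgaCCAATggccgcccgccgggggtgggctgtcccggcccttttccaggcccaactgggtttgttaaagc
The tandem E box of TXNIP spans the bases 88 to 72 before the start, and these letters occur in 16 of 35116 upstream stretches of the same length (0.0456%). The forkhead motif lies 124 to 118 bases before the start and is held by 2.98% of the stretches. A CCAAT box lies 105 to 101 bases before the start and another, on the opposite strand, 140 to 136 bases before it, and 32% of the stretches hold at least 1. The ARRDC4 stretch holds 3 CCAAT boxes and no match to the other motifs as written. A second RefSeq start of TXNIP, whose upstream stretch is not shown, has no match to any of the 3. These matches describe letters and not binding, which was not measured.

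TXNIP was clearly measured on all 6 arrays and its level was lower on every siTARDBP array than on any siLuc array, but the difference narrowly missed the threshold used for all probes. The deposited intensity, a linear and non-normalised brightness, was 1444, 1174 and 1209 in siLuc replicates 1, 2 and 3. It was 1118, 864 and 781 in siTARDBP replicates 1, 2 and 3. These values are 6.61 to 14.4 times the estimated background level of their arrays. The highest siTARDBP array thus stayed under the lowest siLuc array before any normalisation, and the group means were 1276 ± 147 and 921 ± 176 (SD, n = 3 each). Deposited intensities also hold differences in brightness between whole arrays, whose median intensity ran from 64.4 to 83.0.

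**Figure D1:**
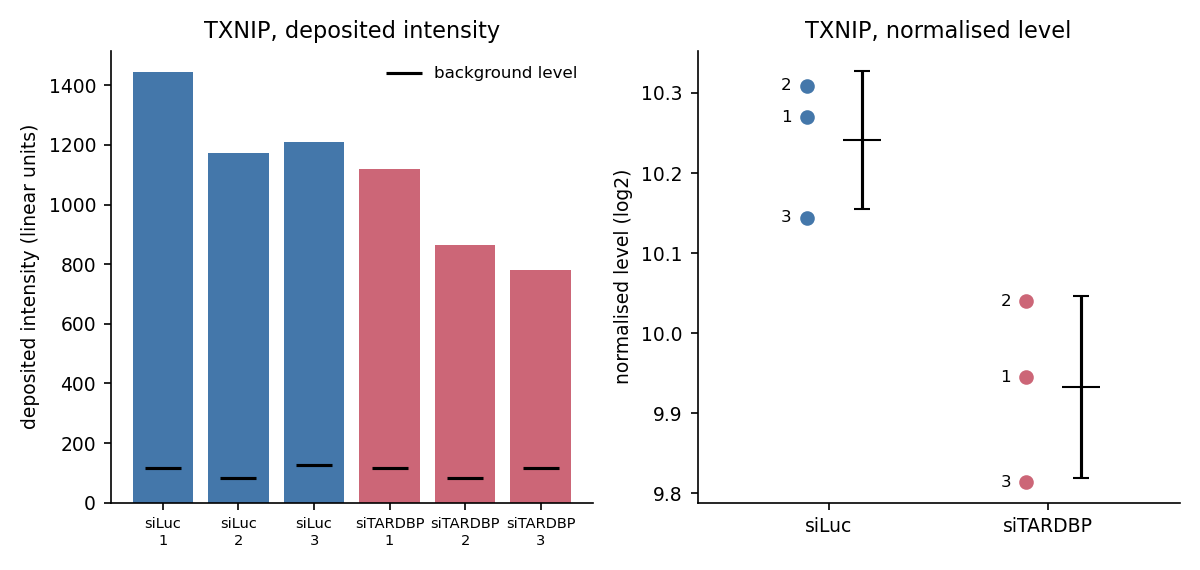
Left, deposited TXNIP intensity on each array (linear units, bars from 0) with the estimated background level of that array as a black line. Right, normalised log2 level of each array, labelled by replicate number, with the group mean and SD (n = 3 each). The siTARDBP arrays lie between 9.81 and 10.04 and the siLuc arrays between 10.14 and 10.31.

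After background correction and quantile normalisation, the log2 level was 10.27, 10.31 and 10.14 in siLuc replicates 1, 2 and 3. The siTARDBP replicates 1, 2 and 3 stood at 9.94, 10.04 and 9.81. The groups remained apart by 0.10 on the log2 scale, less than the range within siLuc (0.17) or within siTARDBP (0.23). The group means were 10.24 ± 0.086 for siLuc and 9.93 ± 0.11 for siTARDBP (SD, n = 3 each). Their difference, siTARDBP minus siLuc, was -0.31 on the log2 scale with a standard error of 0.097 and a 95% interval from -0.51 to -0.10. This corresponds to a measured level 1.24-fold (19.2%) lower, and the offset of 50 used in the correction compresses such folds slightly. The size also depends on the normalisation. The ratio of the mean deposited intensities, siTARDBP to siLuc, was 0.72, a larger gap than after quantile normalisation. With median scaling over all probes in its place the log2 difference was -0.45.

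In limma's moderated test the unadjusted p was 0.00579, and the p adjusted by Benjamini-Hochberg over the 15136 tested probes was 0.0511, just outside the threshold of 0.05. Of the tested probes, 5.34% passed that threshold as lower and 5.87% as higher. For 15.2% of the tested probes all 3 siTARDBP arrays lay under all 3 siLuc arrays, so the separation seen for TXNIP was common in this comparison. An exact two-sided permutation test of the 6 levels gave p = 0.1, the smallest value that 3 samples against 3 allow. Between arrays of the same number the difference was -0.32, -0.27 and -0.33 for replicates 1, 2 and 3.

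The call turned on small choices. TXNIP was lower in siTARDBP under all 21 alternative settings run, with log2 differences from -0.45 to -0.25. Its adjusted limma p ranged from 0.0275 to 0.203 and passed the threshold in 8 of them. Many of these settings could not have reversed the direction. A change of only the filter, the variance estimate or the block left the difference at -0.31. Since the groups do not overlap, omitting or weighting arrays could not change its sign. At -0.45, with median scaling over all probes, the median of all tested probes was -0.088. Leaving out siTARDBP replicate 2 gave -0.36 with an adjusted limma p of 0.0366, and leaving out siTARDBP replicate 3 gave -0.25 with an adjusted limma p of 0.203. The arrays differed in background: the arrays numbered 2 in both groups had a background mode of 58.9 and 59.3 units and the other 4 had modes between 71.5 and 75.9. Within those 4 arrays the difference was -0.33 (limma adjusted p = 0.134), against -0.27 between the arrays numbered 2, where 1 array a group allows no test.

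**Figure D2:**
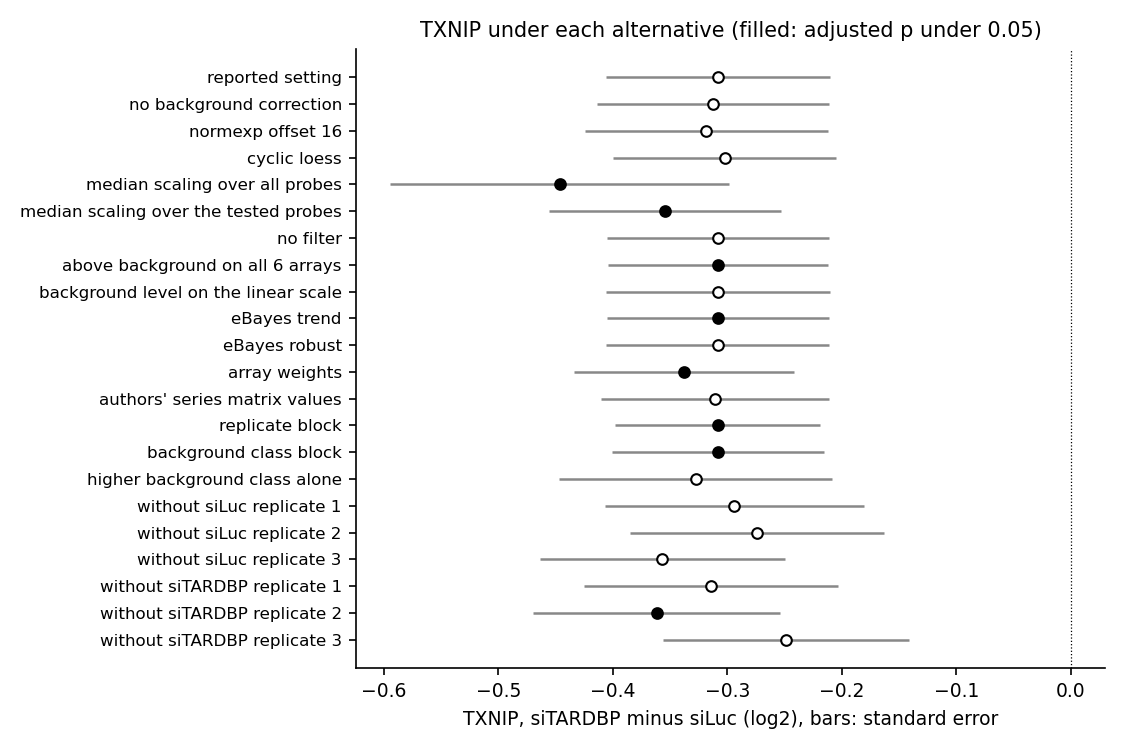
TXNIP difference (siTARDBP minus siLuc, log2) in the reported setting and under each of 21 alternatives, with the standard error as a bar. All points lie between -0.45 and -0.25, and the 8 filled points have an adjusted p under 0.05.

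Among all tested probes the TXNIP difference was moderate. It ranked 937 from the most negative of 15136, and 1963 probes (13%) had a larger difference in either direction. In order of p it ranked 1715, where the first 1696 probes passed. Directly next to it in size stood PLOD2 and SNHG12, both at -0.31 with adjusted limma p of 0.0806 and 0.0537, and on the other side ZNF23 and MTARC2, both at -0.31 with adjusted limma p of 0.0376 and 0.0531. ZNF23 alone of these passed, with a nearly equal difference and a smaller standard error of 0.091.

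**Figure D3:**
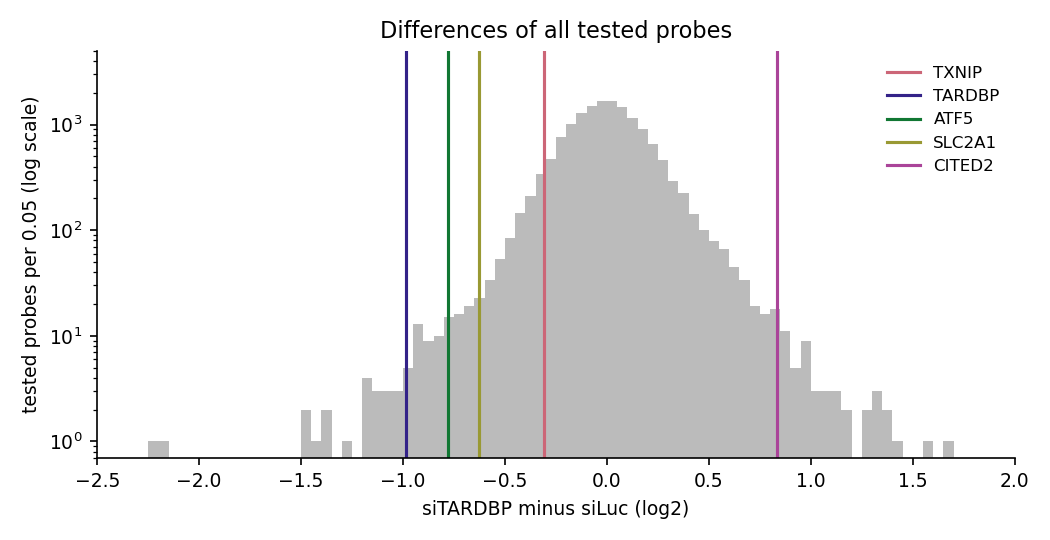
Number of tested probes (log axis) by siTARDBP minus siLuc difference (log2, bins of 0.05), with lines at TXNIP and 4 other genes. TXNIP at -0.31 lies on the shoulder of the distribution, far less displaced than TARDBP at -0.98.

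The targeted gene was low in the knockdown arrays. The intensity of the TARDBP probe ILMN_1677532 was 265, 214 and 203 in siLuc replicates 1, 2 and 3, and 136, 84.0 and 96.5 in siTARDBP replicates 1, 2 and 3. The groups do not overlap, and siTARDBP replicate 3 was not above its background level. siTARDBP minus siLuc came to -0.98 on the log2 scale (standard error 0.11, limma adjusted p = 1.59e-05). Of the hepatocyte markers, 9 were named on the array and 2 could be tested, SERPINA1 and ALB. The brightest SERPINA1 probe had a mean intensity of 567 in siLuc and 474 in siTARDBP. ALB was close to background, at a mean of 124 in siLuc and 123 in siTARDBP. AFP, at a mean of 110 in siLuc and 81.2 in siTARDBP, was above background on 2 of 3 siLuc and 0 of 3 siTARDBP arrays and was not tested. APOA1, APOB, TTR, TF, FGB and CYP3A4 were not above background on any array. Of 6 endothelial markers ENG could be tested, at a mean intensity of 521 in siLuc and 502 in siTARDBP. PECAM1, VWF, CDH5, KDR and TEK were not above background on any array. Of 6 mesenchymal markers VIM, SPARC and THY1 could be tested. Their means were 20384, 3675 and 623 in siLuc and 20004, 3548 and 477 in siTARDBP. FN1 was not above background on any array, and COL1A1 and COL1A2 were above it on too few arrays to be tested. None of these cell type markers passed the threshold. The blood cell markers PTPRC, HBB and CD3D could not be tested, while CD14 (-0.17, limma adjusted p = 0.3) and CD68 could. The CD68 probe used for that gene was lower at -0.67 (limma adjusted p = 0.00127). Its probes disagree: another was higher at 0.52 (limma adjusted p = 0.00263) and a further one stood at -0.0012 (limma adjusted p = 0.996).

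The probes whose profile over the 6 arrays was most like that of TXNIP followed the same order of arrays closely. Likeness was measured as the root mean square difference between centred log2 profiles, and the 5 named probes with the smallest value are given. ACO1, the cytosolic aconitase that doubles as an iron regulatory protein, differed from TXNIP by 0.027 (Pearson r = 0.993 over 6 arrays). LZTS2 differed by 0.027 (r = 0.996) and PSME4, a proteasome activator, by 0.030 (r = 0.99). FNBP1L, which acts in actin assembly at membranes, and MTOR, the kinase of the nutrient-sensing TOR complexes, differed by 0.031 (r = 0.985) and 0.032 (r = 0.984). The 5 were chosen for this likeness, so their shared order of arrays and the size of their differences follow from the choice. Their own differences lay between -0.33 and -0.31, and ACO1, LZTS2 and FNBP1L passed the threshold. LZTS2 was dim and close to background, at a mean log2 level of 7.02 over the 6 arrays. Profiles with r above 0.9 were shared by 537 other tested probes (3.55%), so such likeness over 6 arrays that share the group difference is frequent.

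**Figure D4:**
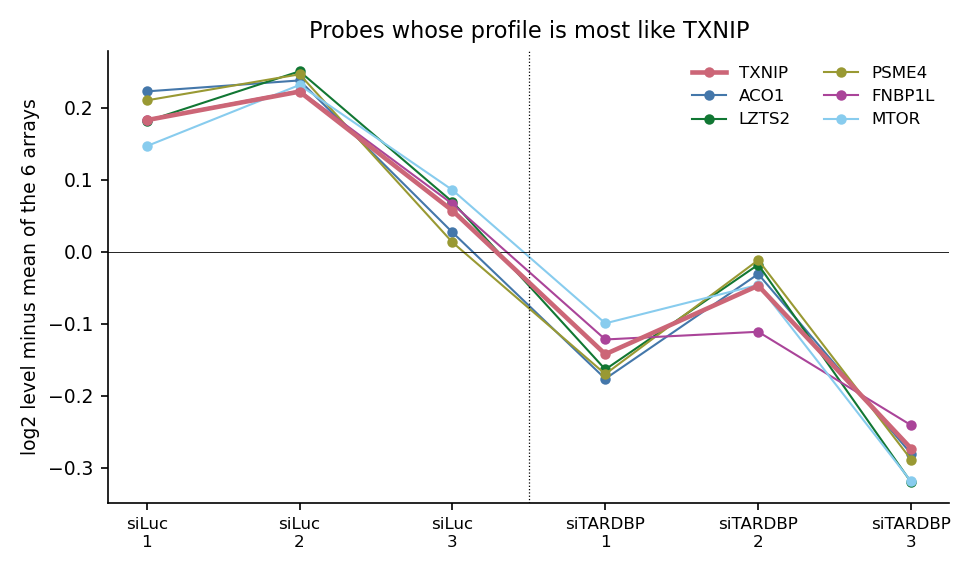
Normalised log2 level of TXNIP (thick line) and of the 5 most similar named probes on each array, each minus its own mean over the 6 arrays. Lines only join the arrays of a probe. All 6 profiles are above 0 on the siLuc arrays and below 0 on the siTARDBP arrays, as the choice by likeness to TXNIP implies.

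No alpha-arrestin passed the threshold in the reported setting. Of the 6 family members, TXNIP included, 4 could be tested, and 0 passed in either direction, where 11.8% of all tested genes did. With 4 genes, 0 cannot be told apart from that share. ARRDC1 and ARRDC5 were not above background on any array. ARRDC4, an adaptor that like TXNIP can lower glucose uptake, had 2 probes: the brighter gave -0.14 (limma adjusted p = 0.386) and the dimmer 0.038 (limma adjusted p = 0.871). The intervals of these ARRDC4 differences ran from -0.35 to 0.064 and from -0.19 to 0.27, so a difference of the size measured for TXNIP lies inside the first. ARRDC3, which takes part in the sorting of membrane receptors, stood at 0.22 (limma adjusted p = 0.178) and reached 0.31 (limma adjusted p = 0.0442) with median scaling over the tested probes. ARRDC2 had a probe at 0.32 (limma adjusted p = 0.107) and a dimmer one at -0.092 (limma adjusted p = 0.662). Without siTARDBP replicate 2 the first ARRDC2 probe reached 0.42 (limma adjusted p = 0.0366). This ARRDC2 probe and the ARRDC3 probe each passed in only 1 of the 20 alternatives that tested them. Their adjusted limma p there ran up to 0.448 and 0.45. The tested probes of ARRDC2 and ARRDC3 were dim, each above background on 1 of 3 siLuc arrays. On the siTARDBP arrays it was 3 of 3 for the first ARRDC2 probe and 2 of 3 for the dimmer one and for ARRDC3. They thus met the filter of at least 3 arrays mostly through siTARDBP. The higher values of the first ARRDC2 probe and of ARRDC3 in that group are not independent of this filter.

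The genes known to act with TXNIP were taken as 6 further lists, chosen with earlier results of these data known. Together with the alpha-arrestins they hold 89 genes besides TXNIP, of which 59 could be tested, each by its brightest tested probe. Of these 59 genes, 3 were higher and 7 were lower. Over all 9316 tested genes 11.8% passed, 5.46% as higher and 6.38% as lower, with a median difference of -0.023.

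**Figure D5:**
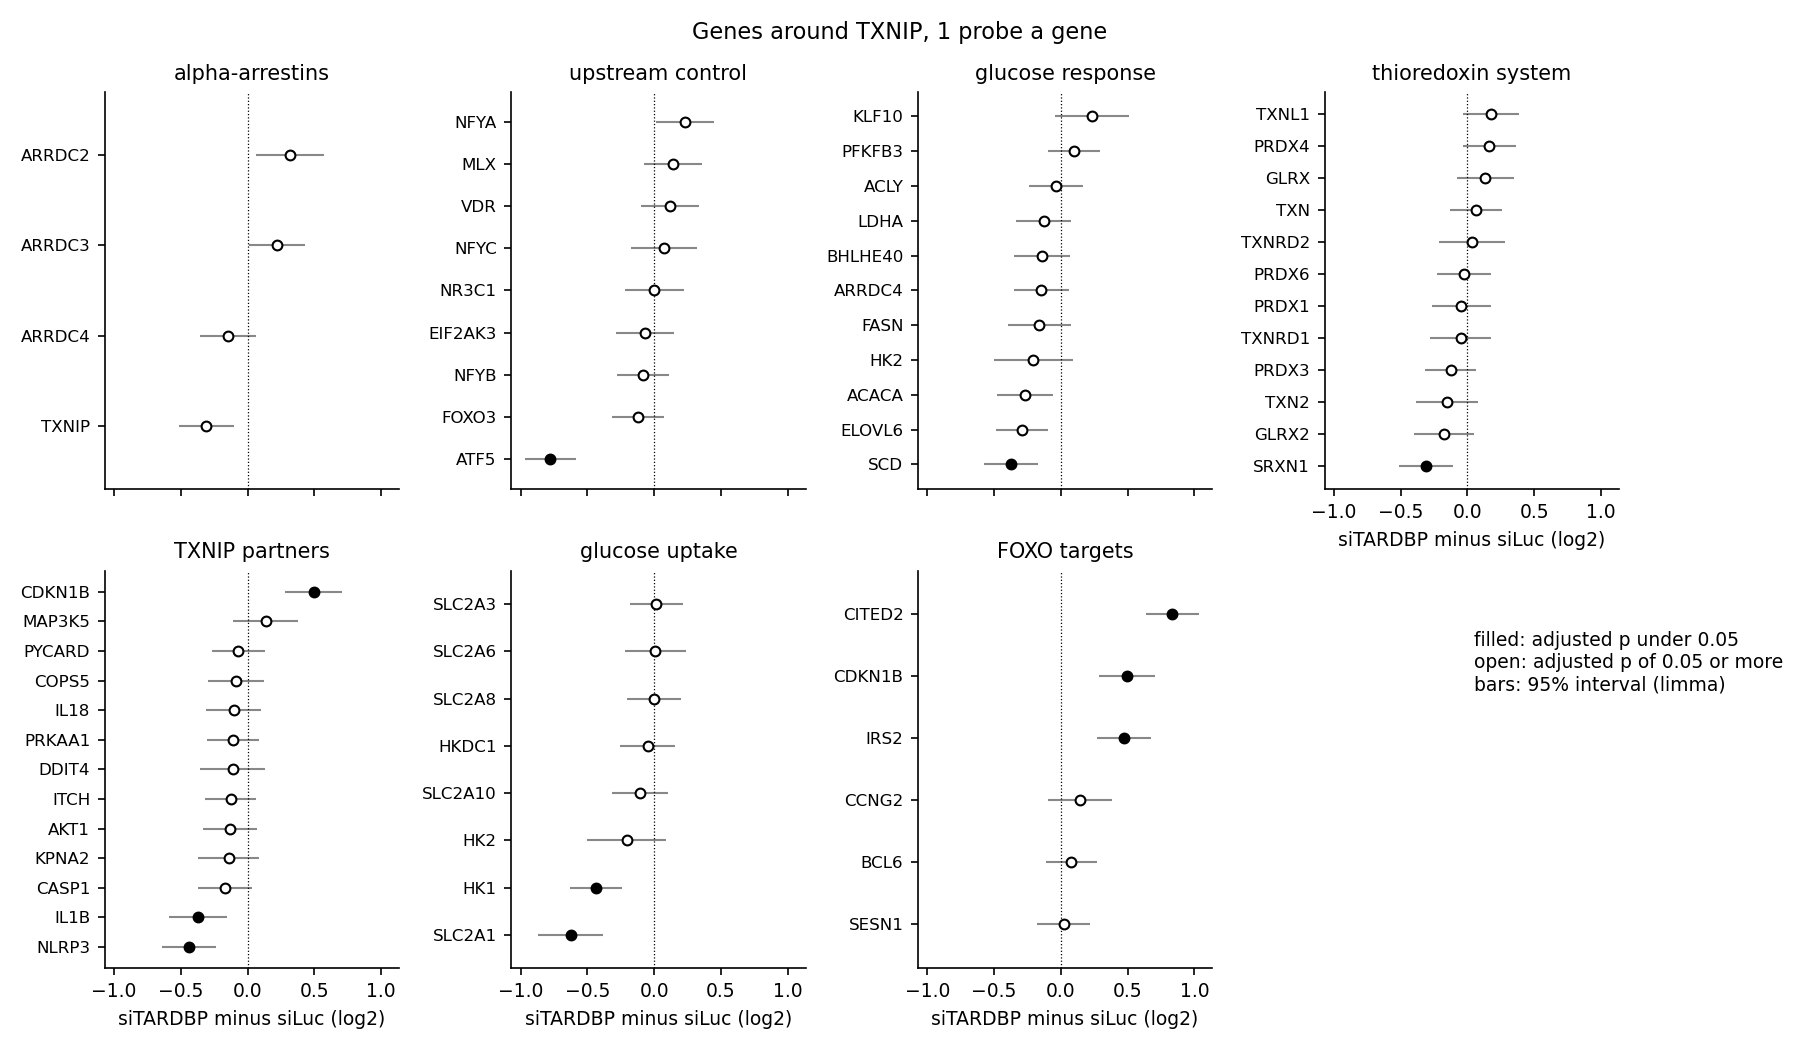
Difference (siTARDBP minus siLuc, log2) of each tested gene of the lists, by its brightest tested probe, with the 95% interval from limma. Filled points have an adjusted p under 0.05. TXNIP is at the lower end of the alpha-arrestins with an open point.

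Of 9 tested factors that control TXNIP, 1 was lower and 0 were higher, a share near the 11.8% of all tested genes that passed, and the median difference was 0.0020. The transcription factor ATF5, which the stress kinase PERK is known to raise and which can induce TXNIP in beta cells, was 250, 191 and 245 units in siLuc replicates 1, 2 and 3. It was 140, 103 and 120 units in siTARDBP replicates 1, 2 and 3. The groups were far apart, at -0.78 on the log2 scale (standard error 0.091, limma adjusted p = 2.77e-05). MondoA (MLXIP) and ChREBP (MLXIPL) were not above background on any array, which gives no level for either. Their partner MLX stood at 0.14 (limma adjusted p = 0.429) and NFYA, a subunit of the CCAAT-binding factor NF-Y, at 0.23 (limma adjusted p = 0.165). FOXO3, a forkhead factor, had a brighter probe at -0.12 (limma adjusted p = 0.455) and another at 0.31 (limma adjusted p = 0.0449), so its probes disagree. The second FOXO3 call was lost without siLuc replicate 1, 2 or 3 and without siTARDBP replicate 1 or 3, with adjusted limma p from 0.0859 to 0.155.

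Other genes driven by MondoA or ChREBP showed a median difference of -0.14. Of 11 tested, 1 was lower and 0 were higher, a share near the 11.8% of all tested genes that passed. SCD, the desaturase that makes monounsaturated fatty acids, was 1488, 1240 and 1540 units in siLuc replicates 1, 2 and 3. It was 1280, 836 and 862 units in siTARDBP replicates 1, 2 and 3, a range that overlaps with siLuc before normalisation and does not after it. Its log2 difference was -0.37 (limma adjusted p = 0.0185), and the call was lost without siLuc replicate 2 or 3 or siTARDBP replicate 3, with adjusted limma p from 0.065 to 0.0873. The fatty acid enzymes ELOVL6 (-0.29, limma adjusted p = 0.0509) and ACACA (-0.27, limma adjusted p = 0.0969) did not pass. KLF10, a repressor induced by glucose in liver, stood at 0.24 (limma adjusted p = 0.277). A dim probe of LDHA passed at -0.35 (limma adjusted p = 0.0257), while the brightest LDHA probe, at -0.13, did not (limma adjusted p = 0.447). Another bright LDHA probe stood at -0.087 (limma adjusted p = 0.604). The brightest one read 16822 to 22331 units, near the highest intensities of the arrays (23102 to 26258). Whether this limited its difference was not tested. The call of the dim LDHA probe was lost without siLuc replicate 1 or 3 or siTARDBP replicate 3, with adjusted limma p from 0.064 to 0.112.

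Of 12 tested genes of the thioredoxin system, on which TXNIP acts, 1 was lower and 0 were higher, which is not far from the 11.8% of all tested genes that passed. The median of this list was -0.036. TXN, the thioredoxin that TXNIP binds, stood at 0.064 with an interval from -0.13 to 0.26, and its reductase TXNRD1 at -0.051 with an interval from -0.28 to 0.18. PRDX1, a peroxidase that draws on thioredoxin, stood at -0.047. SRXN1, the sulfiredoxin that restores peroxiredoxins, was 877, 647 and 703 units in siLuc replicates 1, 2 and 3 and 637, 447 and 527 in siTARDBP replicates 1, 2 and 3. Its log2 difference of -0.31 was close to that of TXNIP and passed narrowly (limma adjusted p = 0.0446). Leaving out any 1 of the 6 arrays ended the SRXN1 call, with adjusted limma p from 0.0505 to 0.155.

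Among the known partners and modifiers of TXNIP, 1 of 13 tested was higher and 2 were lower, and their median was -0.11. Over all tested genes 5.46% were higher and 6.38% lower. NLRP3, the inflammasome sensor, was 548, 499 and 515 units in siLuc replicates 1, 2 and 3 by its brightest probe. In siTARDBP replicates 1, 2 and 3 it was 425, 317 and 309 units. The arrays of each group lay well apart, with a log2 difference of -0.44 (limma adjusted p = 0.00605). A second NLRP3 probe gave -0.52 (limma adjusted p = 0.00156), and another, at the edge of background, -0.19 (limma adjusted p = 0.28). IL1B, the cytokine that the inflammasome releases, was 8930, 6624 and 7620 units in siLuc replicates 1, 2 and 3 and 6172, 4530 and 5576 in siTARDBP replicates 1, 2 and 3. Its log2 difference was -0.37 (limma adjusted p = 0.0263). The IL1B call was lost without siLuc replicate 1 or 2 or siTARDBP replicate 1 or 2, with adjusted limma p from 0.07 to 0.118. CASP1 and PYCARD, the protease and the adaptor of the inflammasome, stood at -0.17 (limma adjusted p = 0.288) and -0.069 (limma adjusted p = 0.696). CDKN1B, the cell cycle inhibitor p27 that TXNIP is known to stabilise, went the other way: 689, 457 and 645 units in siLuc replicates 1, 2 and 3 and 889, 680 and 699 in siTARDBP replicates 1, 2 and 3. These CDKN1B intensities overlap between groups, whereas the normalised levels do not, and the log2 difference was 0.49 (limma adjusted p = 0.00381). A dimmer CDKN1B probe gave 0.31 (limma adjusted p = 0.0493), a call that was kept without siLuc replicate 1 and lost without any other single array, with adjusted limma p from 0.0895 to 0.179.

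Glucose entry, which TXNIP protein restrains, is given by 8 tested transporters and hexokinases, of which 2 were lower and 0 were higher. Over all tested genes 6.38% were lower and 5.46% higher. SLC2A1, which encodes GLUT1, was 1086, 779 and 1040 units in siLuc replicates 1, 2 and 3. It was 627, 596 and 463 units in siTARDBP replicates 1, 2 and 3, lower on every array. This gave -0.63 on the log2 scale (standard error 0.12, limma adjusted p = 0.00205). HK1, which phosphorylates glucose on entry, stood at -0.44 (limma adjusted p = 0.0057), while SLC2A3 at 0.017 and HK2 at -0.21 did not pass (limma adjusted p = 0.935 and 0.384). The median of this list was -0.077.

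The FOXO target genes that passed were all higher. They were included because FOXO factors are known to act on TXNIP and its promoter carries a forkhead motif. Of 13 such genes 6 could be tested, 3 of which were higher and 0 lower, with a median of 0.31. Over all tested genes 5.46% were higher and 6.38% lower, with a median of -0.023. CITED2, a transcriptional co-regulator, was 2231, 1914 and 2340 units in siLuc replicates 1, 2 and 3. It was 4016, 3006 and 3268 units in siTARDBP replicates 1, 2 and 3, a clear separation with a log2 difference of 0.84 (limma adjusted p = 1.84e-05). IRS2, an adaptor of the insulin receptor, rose by 0.47 (limma adjusted p = 0.00427). CDKN1B, already counted among the partners above, was the other. BCL6 (0.078), CCNG2 (0.15) and SESN1 (0.021) did not pass (limma adjusted p = 0.636, 0.459 and 0.924). With median scaling over all probes in place of quantile normalisation, limma's adjusted p for IRS2 and for the brighter and dimmer CDKN1B probes was 0.164, 0.114 and 0.419, so that none of the 3 passed there.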

How the data were processed

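The authors deposited linear probe intensity values exported from BeadStudio without normalisation, per the labels and the submitters' processing notes. The software version and any background subtraction are not given here by those sources. A second deposited table holds the authors' log2 values, whose columns all have a median of 6.12. Their differences between groups followed those reported here (r = 0.9997 across tested probes), but the steps that made them are not given, and they served as an alternative. Probes were named through the platform annotation (30113 with 1 gene, 8 with several, 17110 unnamed), and 30074 names were matched to RefSeq.

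Intensities were corrected by normexp (offset 50), quantile-normalised and tested on the log2 scale with limma 3.58.1 (R 4.3.3; lmFit, eBayes, 2 groups of 3, no block), with Benjamini-Hochberg adjustment and a threshold of 0.05. A probe was tested if at least 3 arrays exceeded an estimated background level (mode of the dim peak, lower values mirrored, 95% point), which kept 15136 of 47231 probes. Median intensity per array was 64.4 to 83.0, and the number of arrays limits the precision. A gene was read by its brightest tested probe. The procedure was run on simulated data with independent noise and no array effects. The outcome is not given here and is not used for the TXNIP difference. Named genes were TXNIP, TARDBP, the alpha-arrestins, list genes past the threshold (at most 6 a list) with up to 4 that did not pass, the 5 probes most like TXNIP and its neighbours in size. The members and lists were chosen with earlier results of these data known. Deviations from the group mean correlated between same-numbered arrays of the 2 groups at 0.106, 0.103 and -0.0025. Between arrays of unlike number the values ran from -0.159 to 0.0639. Since not all same-numbered values exceed 0.1, no pairing was assumed. The probe's own sequence was not used here.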

Additional observations from a re-analysis of the deposited data

How the results depend on the processing

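The TXNIP difference was negative under all 21 alternatives, many of which, as given above, could not have reversed it. Its adjusted limma p stayed at or above 0.05 in 13. In limma it passed with median scaling over all probes (-0.45, adjusted p = 0.0415), median scaling over the tested probes (-0.35, adjusted p = 0.0323), a filter of all 6 arrays above background (-0.31, adjusted p = 0.045), the eBayes trend (-0.31, adjusted p = 0.0478), array weights (-0.34, adjusted p = 0.0275) and the background class as a block (-0.31, adjusted p = 0.0489). With the replicate block it was -0.31 (limma adjusted p = 0.0426), with 1747 probes past the threshold; the numbers share no stated origin, so this pairing is not used. Omitting single arrays moved TXNIP between -0.36 and -0.25 and TARDBP, which passed throughout, between -1.07 and -0.92. The number of probes that passed then lay between 953 (without siLuc replicate 2) and 1800, those higher between 529 and 942, those lower between 424 and 858. List genes numbered 3 to 4 higher and 4 to 6 lower. Median scaling over all probes gave 1015 probes in place of 1696, 282 higher (27.8% against 52.4%), and 1 list gene higher. With that scaling the median difference of all tested probes was -0.088, and TXNIP minus that median was -0.36, against -0.30 in the reported setting. The 4 arrays of higher background gave 848 probes, 476 higher and 372 lower, from fewer samples. In these arrays 2 list genes were lower (ATF5 and SLC2A1), while CITED2 (limma adjusted p = 0.00269) and IRS2 kept their calls as higher. The second NLRP3 probe, not the brightest of its gene, also stayed lower (limma adjusted p = 0.0355). The background level mirrored on the linear scale was chosen after seeing the data and left TXNIP at an adjusted p of 0.056. For the other changes the cause was not tested. Signal over background did not limit TXNIP, which exceeded it on all 6 arrays, but kept MLXIP, MLXIPL, ARRDC1 and ARRDC5 out of the test.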

Other observations

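Probes of CD68, which encodes a lysosomal membrane protein of macrophages, moved apart. The probe ILMN_1714861 was lower in siTARDBP at -0.67 on the log2 scale (limma adjusted p = 0.00127, intensity 3463 ± 378 in siLuc and 1938 ± 190 in siTARDBP, SD, n = 3 each). The probe ILMN_2267914 was higher at 0.52 (limma adjusted p = 0.00263, intensity 162 ± 22.8 and 227 ± 55.5). The third, ILMN_2359907, stood at -0.0012 (limma adjusted p = 0.996) with an interval from -0.21 to 0.21. Both calls held under all 21 alternatives, with adjusted limma p of at most 0.0188 and 0.0337.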
